A study of Homo sapiens with 4 samples.

Results

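The epidermal growth factor receptor and its ligands were examined as 8 genes: EGFR, which encodes the receptor, and AREG, EREG, EPGN, BTC, HBEGF, TGFA and EGF, which encode its ligands. They were taken as a gene family from 19970 coding genes of chromosomes 1 to 22 and X. For each gene, open chromatin was read in a window of the GENCODE release 44 gene body plus 50 kb on each side, in hg38. The windows held 61 of 149858 regions of open chromatin in the series. The rule that gives the genes uses no measured value.

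MCF10A cells, an immortal but non-transformed line of human breast epithelium, carried TAZ-4SA under a tet-inducible promoter. TAZ-4SA is a mutant of the Hippo pathway coactivator TAZ that is active at all times. Open chromatin was read by ATAC-seq, which uses a transposase to tag accessible DNA. Cells treated with 0.05 µg/mL doxycycline (Dox) for 72 h were compared with cells without it (No Dox), with 2 replicates per condition and 50000 cells per reaction. Cells of both conditions carried the construct and grew with 20 ng/mL EGF, horse serum, hydrocortisone, cholera toxin and insulin, so the receptor was supplied with ligand throughout. Dox-treated cells without the construct were not analysed here, and effects of TAZ-4SA and of Dox itself cannot be told apart. The authors pooled both replicates of a condition before they called peaks, so each condition has 1 peak list. The spread of the replicates is therefore unknown, as is the depth of the samples, and no p-value was computed. Intervals in brackets are 95% Clopper-Pearson intervals, which are exact and hold counting error only.

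EGFR is a receptor tyrosine kinase at the cell surface. Its ligands are made as membrane-anchored precursors and released by metalloproteases, above all ADAM17 and ADAM10, and a bound receptor signals through RAS and ERK and through PI3K. EGF, TGFA, HBEGF and BTC bind with high affinity and AREG, EREG and EPGN with lower affinity. Mammary epithelial cells make several of these ligands for themselves, and MCF10A cells depend on EGF in their medium. AREG is a known target gene of YAP, the paralog of TAZ, and the authors reported earlier that TAZ activates its product, amphiregulin. TEAD factors bind DNA for both coactivators, and AP-1, the dimer of FOS and JUN proteins, is a transcription factor downstream of ERK.

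Peaks of both lists that overlapped or touched were merged into regions, and these are shared where both lists have a peak in them, and Dox-only or No-Dox-only where 1 list alone has. Condition-only regions include those where the other list fell just short of its threshold. The fold of a peak is the authors' enrichment of pooled signal over background at its summit. Since the lists have different backgrounds, a fold is given with its percentile, the percent of peaks of its own list with a lower fold. A strong region reaches the median fold of its list, which was 4.07 in Dox and 3.81 in No Dox. Across the series, Dox-only regions made up 22.3% of all regions and No-Dox-only regions 45.3%.

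The sequences below come from hg38, plus strand, 5′ to 3′. They were taken by fold from the 4 strongest regions of each condition-only class per locus. Only regions with a TEAD site (ACATTCC or GCATTCC) or an AP-1 site (TGAGTCA or TGACTCA) on either strand within 100 bp of the summit were used. These sites were chosen because TAZ is known to reach DNA through TEAD, in an earlier model together with AP-1. The authors report that a minority of TAZ binding falls on both motifs, and propose that TAZ may work with each separately. Capitals mark the sites, and a site on the minus strand reads as its reverse complement. At most 8 were taken, Dox-only regions before the others, so 1 more No-Dox-only region with an AP-1 site, at HBEGF with a fold of 3.39, is not printed. The first 4 are Dox-only and the last 4 are No-Dox-only.
Between AREG and BTC, chr4:74682855-74682907: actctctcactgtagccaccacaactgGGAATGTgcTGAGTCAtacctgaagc
EGFR intron 1, chr7:55022085-55022133: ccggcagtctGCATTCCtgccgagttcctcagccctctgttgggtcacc
Upstream of AREG, chr4:74433250-74433303: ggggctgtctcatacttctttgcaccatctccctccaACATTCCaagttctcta
Upstream of EGF, chr4:109875278-109875397: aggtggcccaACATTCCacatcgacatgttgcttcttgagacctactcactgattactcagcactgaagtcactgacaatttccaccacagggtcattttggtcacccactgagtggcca
EGFR intron 1, chr7:55109504-55109623: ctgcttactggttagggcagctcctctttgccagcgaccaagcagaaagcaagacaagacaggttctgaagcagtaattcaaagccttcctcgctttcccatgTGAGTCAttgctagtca
Upstream of AREG, chr4:74428457-74428485: catcccccatccTGACTCAtatgggtgac
TGFA intron 1, chr2:70541772-70541820: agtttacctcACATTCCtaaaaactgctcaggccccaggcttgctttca
Upstream of TGFA, chr2:70570170-70570223: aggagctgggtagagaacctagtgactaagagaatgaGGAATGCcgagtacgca

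Most of these genes had an open promoter with and without Dox. A peak lay within 1 kb of a transcription start site (TSS) in both lists for 6 of 8 genes, namely EGFR, AREG, EREG, BTC, HBEGF and TGFA. Over all coding genes this state held for 65.3%. EPGN, which encodes the ligand epigen, had a promoter peak in No Dox alone, a state of 3.92% of coding genes. EGF itself had none in either list, as 24.9% of coding genes did, and its nearest peaks lay 8171 bp from the TSS in Dox and 8517 bp in No Dox. None of the 8 had a promoter peak in Dox alone, a state of 5.85% of coding genes.

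Of the 61 regions of the windows, 25 were shared, 16 were found in Dox alone and 20 in No Dox alone. Dox-only regions were thus 26.2% and No-Dox-only regions 32.8% of them. Among condition-only regions, 44.4% were Dox-only (27.9 to 61.9), against 33.0% over the series, which lies within this interval. Among strong ones, 8 were Dox-only and 14 No-Dox-only, while 6.59% and 13.4% of all regions of the series were strong and of these classes. Dox-only regions made up 36.4% of the strong condition-only ones, against 33.1% over the series. HBEGF had more Dox-only than No-Dox-only regions (7 and 5), as did EREG (3 and 1) and EPGN (3 and 2). EGFR (1 and 5), TGFA (1 and 3) and EGF (1 and 2) had fewer, and AREG (2 and 2) and BTC (1 and 1) had equal numbers. Of all coding genes, 44.7% had more Dox-only regions and 33.5% more No-Dox-only regions in such a window. The median difference, Dox-only minus No-Dox-only, was 0 for the 8 genes and 0 for all coding genes.

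**Figure D1:**
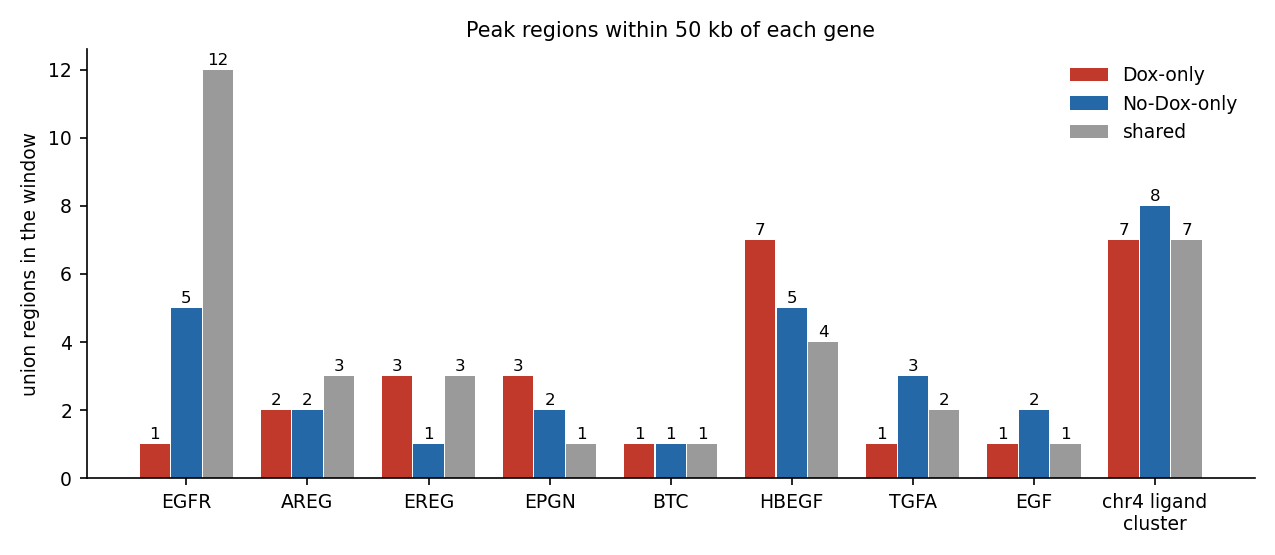
Number of regions of each class (y axis) in the window of each gene and of the whole chromosome 4 cluster (x axis). EGFR has 12 shared and 5 No-Dox-only regions against 1 Dox-only region, and HBEGF has the most Dox-only regions, 7.

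The median folds of condition-only regions at these genes were above those of the series. The median fold of the 16 Dox-only regions was 4.07 (range 2.71 to 7.69), against 3.62 over the series, and 50% against 29.5% were strong. The median fold of the 20 No-Dox-only regions was 4.55 (range 2.75 to 10.2), against 3.39 over the series, and 70% against 29.5% were strong. These are descriptions of 1 list per condition and were not tested. The series values cover all regions, not only those near coding genes, and folds in the windows of other genes were not compared.

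EGFR, the receptor, had its strongest regions of open chromatin in both conditions, and 5 of its 6 condition-only regions were No-Dox-only, all in its long first intron. The gene lies on the plus strand of chromosome 7 from 55019017 to 55211628. Of its 18 regions, 12 were shared, 1 was Dox-only and 5 were No-Dox-only, and 16.7% of its condition-only regions were in Dox (0.421 to 64.1), against 26% on chromosome 7. Intron 1 held 14 of the 18 regions, among them all 6 condition-only ones. Dox peaks covered 12229 bp of the window, against 15037 bp for No Dox peaks. Counted by bases, and thus with the edges of shared regions, 2152 bp were covered in Dox alone and 4960 bp in No Dox alone, so that 30.3% of these bases were in Dox.
At the EGFR promoter both lists had peaks, but their shapes differed. In Dox there were 2 peaks, one at the TSS from 55018711 to 55019498 at a fold of 5.88 (71.5th percentile) and one in intron 1 from 55019877 to 55020965 at a fold of 3.84. In No Dox a single peak ran from 55018599 to 55021256, and its fold of 9.11 (90.0th percentile) was reached 1.77 kb inside the gene. The highest points of the lists thus lay at different places, and the folds of 5.88 and 9.11 do not compare the same bases. The second Dox peak, of fold 3.84 (37.6th percentile), had its summit 1.635 kb inside the gene, near that of the No Dox peak. This difference was not tested.
The only Dox-only region lay next to it, from 55022028 to 55022281 in intron 1, at a fold of 5.20 (64.9th percentile). It began 772 bp from the nearest No Dox peak and held the TEAD site printed above, centred 25 bp before the summit. In contrast, the strongest No-Dox-only region, from 55108896 to 55109902, had a fold of 10.2 (91.8th percentile) and was 19479 bp from the nearest Dox peak. It covered the TSS of an EGFR transcript that starts within intron 1 of the canonical one (ENST00000450046.2), and its AP-1 site lay 96 bp from the summit. The other No-Dox-only regions started at 55140356 (fold 7.20), 55048338 (5.93), 55099299 (4.45) and 55120987 (2.97). The last of these, near the bottom of its list at the 9.49th percentile, held a TEAD site.
The strongest regions of EGFR were shared. The region from 55072910 to 55074478, 55.1 kb into intron 1, had a fold of 19.7 in Dox and 19.1 in No Dox (98.4th and 98.0th percentile). That from 55132589 to 55134313, 114 kb into the same intron, had 17.4 in Dox and 14.2 in No Dox. Past the end of the gene, in the lncRNA gene ELDR, the region from 55254600 to 55256035 had 12.7 in Dox and 15.04 in No Dox. In intron 20, where the antisense gene EGFR-AS1 also lies, the region from 55185797 to 55186996 had 10.9 in Dox and 12.5 in No Dox.

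**Figure D2:**
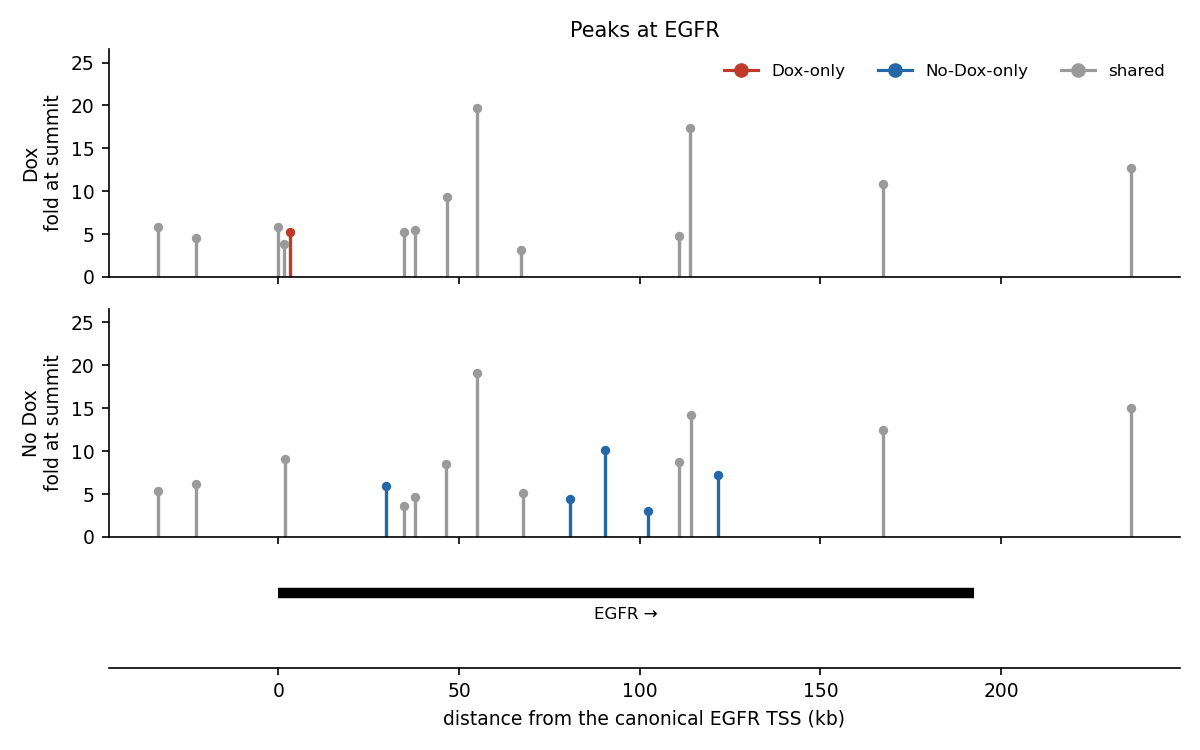
Fold at the summit (y axis) of each peak at EGFR in the Dox list (top) and the No Dox list (middle), by distance of the summit from the canonical TSS (x axis, kb), with the gene drawn to scale below. Stems of No-Dox-only regions stand between 29.7 and 122 kb into the gene, among tall shared peaks that both lists hold.

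AREG, EREG, EPGN and BTC lie in 1 cluster on chromosome 4, taken from 74258470 to 74844523. It held 7 Dox-only regions, 8 in No Dox alone and 7 shared ones, so that 46.7% of its condition-only regions were in Dox (21.3 to 73.4), against 29.1% on chromosome 4. Of strong regions, 5 were Dox-only and 6 No-Dox-only. Dox peaks covered 8905 bp and No Dox peaks 8791 bp. The windows of EPGN, EREG and AREG overlap, so a region between them counts for both neighbours.
EPGN is the gene of the cluster whose promoter state differed. Its TSS at 74308470 lay under a No Dox peak from 74308181 to 74308698 (fold 5.51, 75.9th percentile) with no Dox peak over it. A Dox-only region stood 1566 bp upstream of the TSS, from 74306618 to 74306904 (fold 5.20, 64.9th percentile), and 1277 bp separated both regions. With a distance of 3 kb in place of 1 kb EPGN counted as open in both lists. A further Dox-only region from 74283712 to 74284433 (fold 6.56) lay within the neighbouring gene MTHFD2L, 24.2 kb upstream of EPGN.
EREG, which encodes epiregulin, had a shared promoter region from 74364765 to 74365472 with a fold of 4.52 in Dox and 4.24 in No Dox. Its first intron held a shared region from 74374476 to 74376105 with 4.29 in Dox and 5.72 in No Dox. This region held both a TEAD and an AP-1 site near its summit.
AREG, which encodes amphiregulin, had a shared promoter region from 74444903 to 74445561 with a fold of 5.20 in Dox and 5.93 in No Dox (64.9th and 78.7th percentile). Upstream of it, regions of both classes stood close to each other. Dox-only regions from 74433033 to 74433435 (fold 4.75, with a TEAD site) and from 74431302 to 74431555 (fold 4.29) lay 11.9 and 13.8 kb upstream of the TSS. A No-Dox-only region from 74428304 to 74428746 (fold 5.30, with an AP-1 site 5 bp from the summit) lay 16.7 kb upstream, 2556 bp from the nearest Dox peak. Downstream of the gene, a shared region from 74455840 to 74456769, which held a TEAD site, had a fold of 6.10 in Dox and 5.51 in No Dox.
Between the windows of AREG and BTC the DNA held 5 regions, and the highest condition-only folds of the cluster in both directions were there. The Dox-only region from 74682629 to 74683198 had a fold of 8.59 (85.9th percentile). Its TEAD and AP-1 sites, printed above, are 2 bases apart. Both kinds of site within 100 bp of the summit were found in 1 of the 17 Dox-only regions of the gene windows and cluster (5.88%, 0.149 to 28.7). In the series they were found in 1.44% of Dox-only regions, which lies within this interval. The No-Dox-only region from 74659640 to 74660065 had a fold of 9.11 (90.0th percentile) and neither site, and 22564 bp separated these regions. The coding TSS nearest to both was that of the shorter BTC transcript, 86958 bp from the Dox-only and 110091 bp from the No-Dox-only region.
BTC, which encodes betacellulin, lies on the minus strand. Its promoter region from 74793710 to 74794854 was shared, with a fold of 9.49 in Dox and 8.47 in No Dox (88.6th percentile in both lists). Within 1 kb of the TSS of a shorter BTC transcript, in intron 2 of the canonical one, lay a No-Dox-only region from 74769021 to 74769852 (fold 4.66). The only Dox-only region of its window, from 74821286 to 74821515, had a fold of 3.39 (19.0th percentile).

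**Figure D3:**
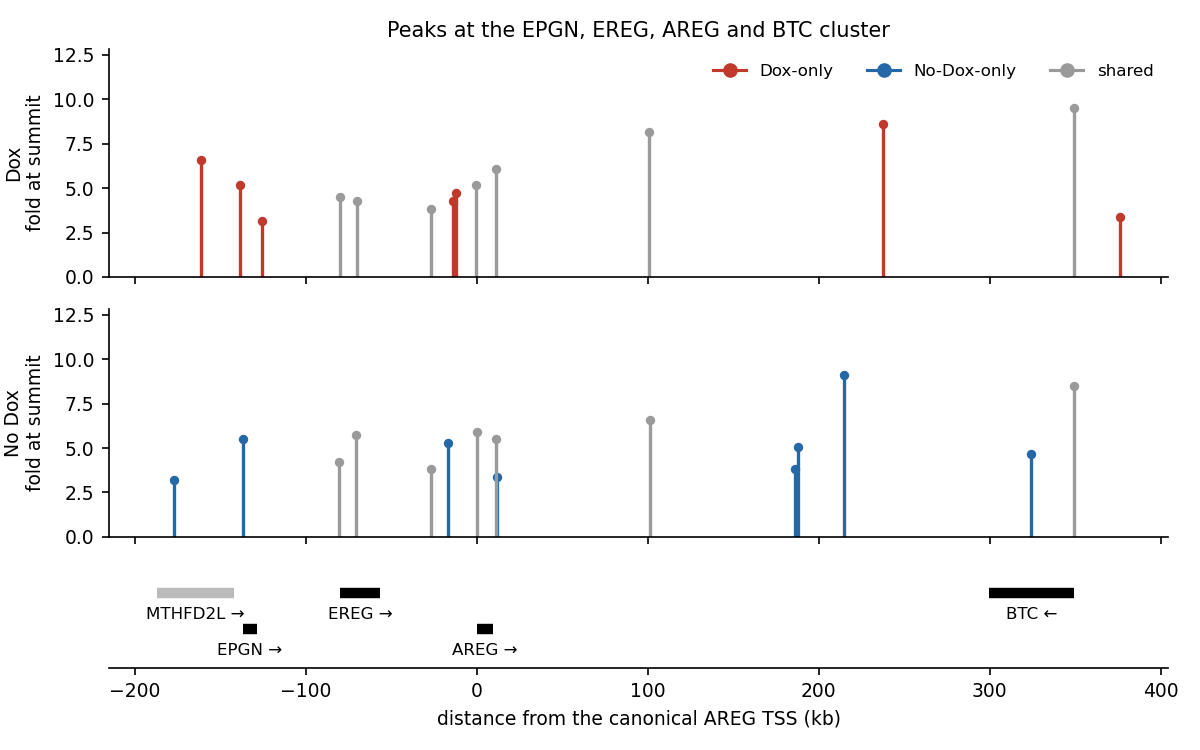
Fold at the summit (y axis) of each peak of the ligand cluster in the Dox list (top) and the No Dox list (middle), by distance of the summit from the canonical AREG TSS (x axis, kb), with genes to scale below. Promoter peaks of EREG, AREG and BTC are in both lists, and the tallest condition-only stems, 8.59 in Dox and 9.11 in No Dox, lie between AREG and BTC.

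HBEGF, which encodes heparin-binding EGF-like growth factor, had the promoter region with the highest folds of the 8 genes and the densest window. It is transcribed from the minus strand of chromosome 5, from 140332843 to 140346603. Its promoter region from 140344615 to 140347533 had a fold of 19.0 in Dox and 22.7 in No Dox (98.2nd and 98.8th percentile). It was 1 peak in Dox and 2 peaks in No Dox. The window held 14.1 regions per 100 kb, against 8.86 on chromosome 5 and 4.94 over the series. Chromosome 5 was itself denser than chromosomes 2, 4 and 7, which held 4.86, 3.77 and 4.60. DNA copy number was not analysed here. Of the 12 condition-only regions of the HBEGF window, 7 were Dox-only (58.3%, interval 27.7 to 84.8), against 29.5% on chromosome 5. Among strong ones, 3 were Dox-only and 3 No-Dox-only.
The condition-only regions with their nearest coding TSS at HBEGF lay on different sides of the promoter by class. No-Dox-only regions from 140348069 to 140348510 (fold 6.99, 83.9th percentile) and from 140349297 to 140349532 (fold 3.39) stood 1.81 and 2.80 kb upstream of the TSS. A Dox-only region from 140341782 to 140342149 (fold 4.29) lay in intron 3. It was within 1 kb of the TSS of another HBEGF transcript, annotated as a retained intron (ENST00000498452.1). Another Dox-only region, from 140322890 to 140323594 (fold 5.20), lay past the 3′ end of the gene. Many of the others were closer to other genes. Of the 16 regions, 7 had their nearest coding TSS at SLC4A9, a solute carrier, 4 at PFDN1, a prefoldin subunit, and 5 at HBEGF. The highest Dox-only fold, 7.69 from 140295450 to 140295697, lay within PFDN1. The 5 regions nearest to HBEGF were 2 Dox-only, 2 No-Dox-only and 1 shared. Across the whole window each class lay on both sides of the gene. Upstream stood 4 regions of No Dox alone and 3 of Dox alone, the latter 14.3, 18.7 and 20.5 kb from the TSS. Past the 3′ end there were 1 and 3.
TGFA, which encodes transforming growth factor alpha, lies on the minus strand of chromosome 2 from 70447284 to 70554193. Its promoter region from 70552709 to 70554527 had a fold of 12.9 in Dox and 12.9 in No Dox, and the Dox peak was wider (1819 bp against 1020 bp). A shared region in intron 1 from 70523770 to 70525332, which held an AP-1 site, had a fold of 12.4 in Dox and 8.26 in No Dox (93.9th and 88.0th percentile). Of 4 condition-only regions 1 was Dox-only (25%, interval 0.631 to 80.6), close to the 26.5% on chromosome 2, and the 3 No-Dox-only ones were strong. Those from 70541550 to 70541881 in intron 1 and from 70569795 to 70570274 upstream of the gene had a fold of 4.66 each and held the TEAD sites printed above. The third, from 70425781 to 70426195, lay past the 3′ end (fold 4.24). The Dox-only region in intron 1 from 70516142 to 70516784 was not strong (fold 3.84).
EGF, which encodes the founding ligand of the family, had the fewest regions after BTC, 4 in 201 kb on chromosome 4. The shared region of intron 1, from 109921054 to 109921957, had a fold of 7.23 in Dox and 4.45 in No Dox (80.3rd and 63.9th percentile). A No-Dox-only region in intron 18 from 109988704 to 109989392 had a fold of 8.05 (87.5th percentile) and was 66956 bp from the nearest Dox peak. Upstream, a Dox-only region from 109875172 to 109875448 had a fold of 2.71, the lowest in the Dox list, and held the TEAD site printed above. A No-Dox-only region 4983 bp from it had a fold of 2.75 (2.02nd percentile), and the TSS nearest to both was that of LRIT3.

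**Figure D4:**
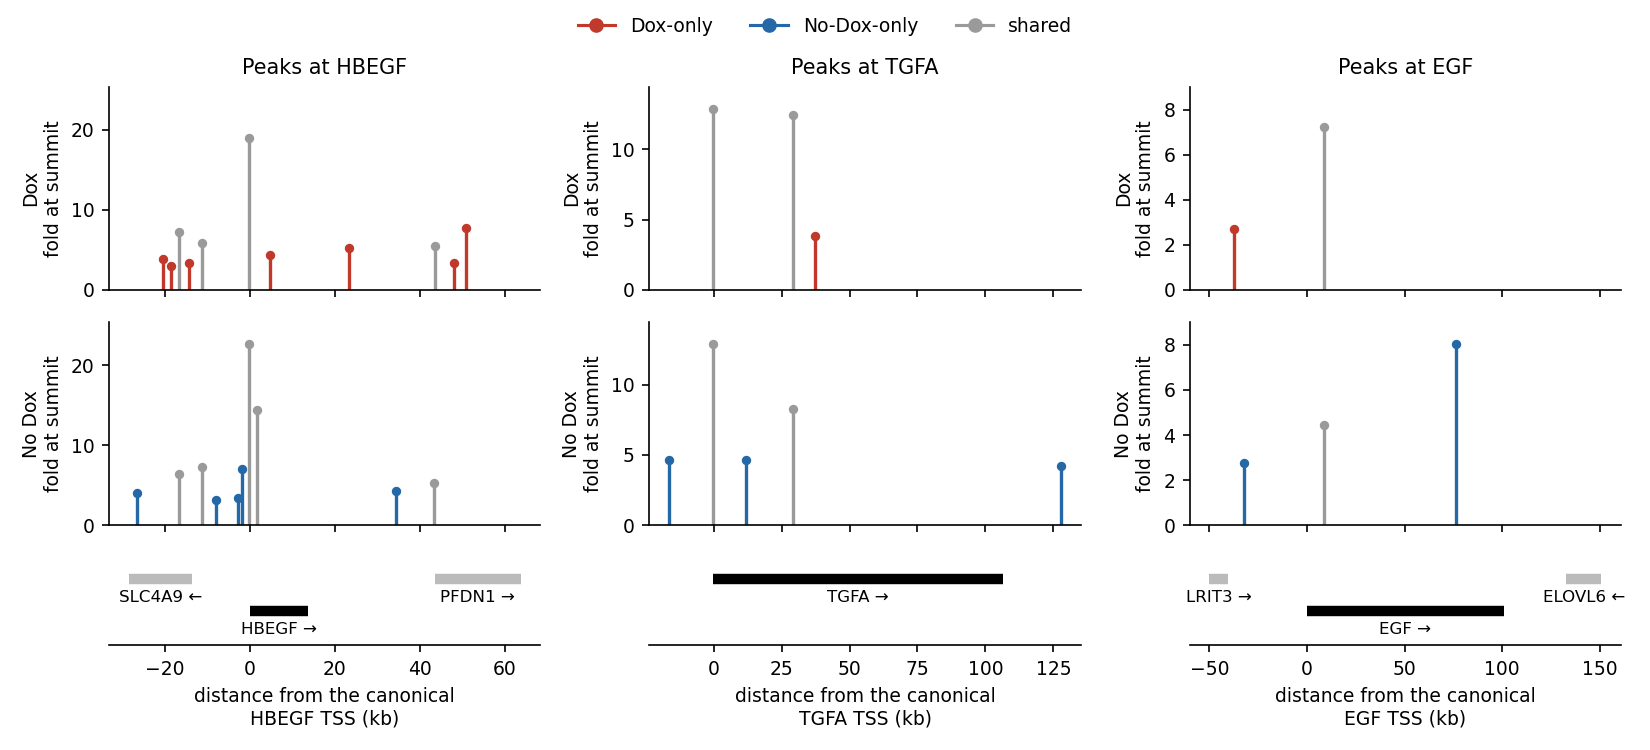
Fold at the summit (y axis) of each peak at HBEGF, TGFA and EGF in the Dox list (top) and the No Dox list (middle), by distance of the summit from the canonical TSS in the direction of transcription (x axis, kb), with genes to scale below. HBEGF and TGFA have tall promoter stems in both lists, with folds of 19.0 and 22.7 at HBEGF, and EGF has no stem at its TSS.

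At shared regions, the folds of both lists were compared as a log2 ratio, Dox over No Dox, less the median of all 48557 shared regions (-0.08). The 25 shared regions of the 8 windows had a median of 0.11, and 15 lay above 0 and 10 below. The middle 50% of all shared regions ran from -0.29 to 0.31 and their 5th to 95th percentile from -0.79 to 0.86.
EGFR held both directions side by side. The region from 55129381 to 55130070 was lower in Dox, with a fold of 4.75 in Dox and 8.69 in No Dox (centred log2 ratio -0.80), which is just under the 5th percentile. That from 55053559 to 55054343 was higher, with 5.20 in Dox and 3.60 in No Dox (0.61). Of its 12 shared regions, 6 lay above 0 and 6 below. The highest values of the family were at the intronic regions of EGF (0.78) and TGFA (0.67), both short of the 95th percentile. In the chromosome 4 cluster 5 of 7 shared regions lay above 0, in a range of -0.34 to 0.39, and at HBEGF 2 of 4.

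**Figure D5:**
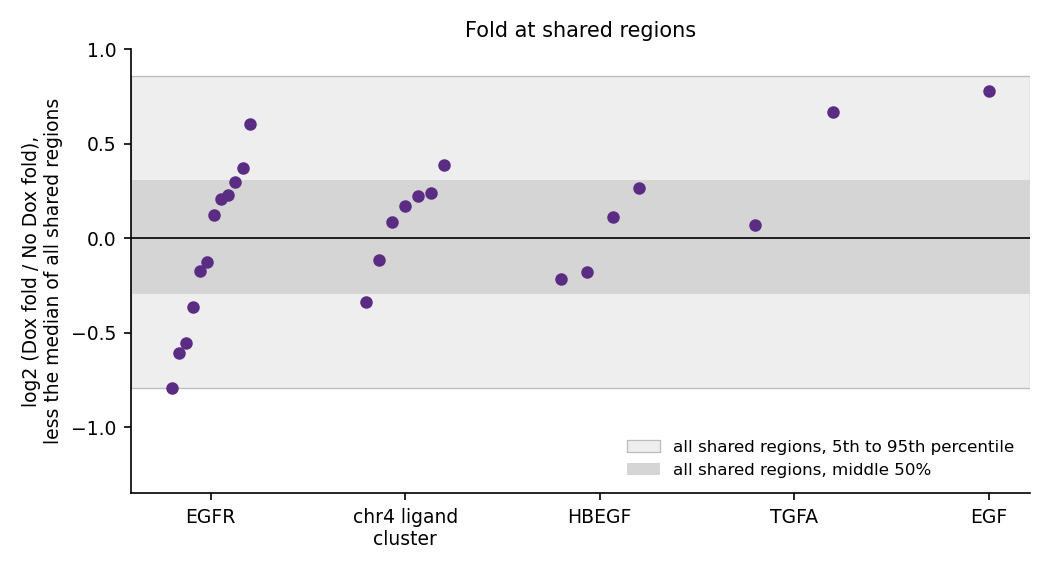
Centred log2 ratio of Dox to No Dox fold (y axis) at each shared region of the 5 loci (x axis), 1 point per region, with the middle 50% and the 5th to 95th percentile of all shared regions as shaded bands. Points of EGFR spread from -0.80 to 0.61, and the single point of EGF is at 0.78.

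TEAD sites were found near the summit in 25% of the Dox-only regions (4 of 16, interval 7.27 to 52.4), 15% of those of No Dox alone (3 of 20, 3.21 to 37.9) and 12% of shared ones (3 of 25). Over the series the shares were 13.6%, 5.72% and 10.0% in the same order. AP-1 sites were found in 1 of 16 Dox-only (6.25%, 0.158 to 30.2), 4 of 20 No-Dox-only (20%, 5.73 to 43.7) and 5 of 25 shared regions (20%), against 8.12%, 11.7% and 18.4% over the series. Each of these series values for condition-only regions lay within the interval of the windows. The letters of the TEAD site read backwards, CCTTACA or CCTTACG, were in 0 regions of the 16 in Dox alone, 0 of the 20 in No Dox alone and 1 of the 25 shared ones, the region of EREG intron 1 named above. Over the series they were in 2.16%, 2.35% and 2% of these classes, so that less than 1 region of each class would hold them at that share. The TEAD sites of the Dox-only regions lay at EGFR, AREG, EGF and, with a fold of 3.39, within PFDN1 beside HBEGF. Those of the No-Dox-only regions lay at TGFA, where there were 2, and EGFR. The Dox-only region between AREG and BTC, printed first above, lay outside the gene windows and is not among the 16. A match of letters does not show that a factor binds.

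Promoters of other genes of the pathway were mostly open in both conditions too. Of 31 genes, 30 had a promoter peak in both lists and 1, NRG3, which encodes a neuregulin, in neither, while 65.3% of all coding genes had one in both and 24.9% in neither. Their windows held 148 regions in Dox alone, against 212 in No Dox alone, a Dox-only percent of 41.1% (36.0 to 46.4) against 33.0% over the series. The balance was toward Dox at 19 genes and toward No Dox at 12, where 44.7% and 33.5% of all coding genes were so. ERBB4, a receptor of neuregulins and some EGF ligands with a gene of 1163 kb, held 130 of these No-Dox-only regions and 6 Dox-only ones, and without it the numbers were 142 and 82 (63.4%). Without NRG2 they were 111 and 208 (34.8%), so single genes set the total. Both percents lie outside the interval of 36.0 to 46.4, which takes each region as independent and is thus too narrow. For single genes, the window of a coding gene held a median of 2 Dox-only regions (95th percentile 11). For No-Dox-only regions the median was 1 (95th percentile 10). The difference, Dox-only minus No-Dox-only, had a 5th percentile of -7 and a 95th percentile of 8. ERBB2, the receptor that pairs with EGFR and binds no ligand itself, had 7 regions in Dox alone and 0 in No Dox alone, and ERBB3 had 2 and 0. The 3 neuregulin genes counted, which leave out NRG1, had 49 in Dox alone and 49 in No Dox alone. There were 37 and 4 at NRG2, which like HBEGF is on chromosome 5, 12 and 44 at NRG3, and 0 and 1 at NRG4. Among genes of ligand release, ADAM17 had 1 and 3, ADAM10 3 and 0, and RHBDF1 and RHBDF2, which encode the iRhom partners of ADAM17, 8 and 0 each. Adaptors and effectors had 27 and 9, of which SHC1 held 19 and 0. Inhibitors had 25 and 15, with 7 and 0 at CBL, a ubiquitin ligase for EGFR, and 1 and 2 at ERRFI1, which blocks its kinase. Immediate early targets had 12 and 6, with 7 and 1 at EGR1.

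As a check of the label, 5 of 6 genes of cultured mammary basal epithelium had a promoter peak in both lists, and KRT14 had one in neither. Of 6 markers of immune cells, endothelium and neural crest, 5 had none in either list and PTPRC had one in No Dox alone. Among all coding genes, 65.3% had a promoter peak in both lists, 24.9% in neither and 3.92% in No Dox alone. With 6 genes per set and most coding genes open in both lists, the check is a weak one. The Dox list held 84353 peaks and the No Dox list 117740.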

How the data were processed

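Sequencing reads were aligned by the authors to hg38 with BWA. Peaks were called by them with MACS2 (FDR 0.05) on both replicates of a condition together, and versions are not given in the sources used here. The deposited lists give the position of each peak, its fold, a ratio of pooled signal to background, and −log10 of its q-value. The folds take whole multiples of a constant step in each list (tolerance 0.01 of a step). No peak among 202093 ran past the end of its hg38 chromosome. The study's read counts in bins were not analysed here.
Peaks of chromosomes 1 to 22 and X were merged when they overlapped or touched. A region belonged to a window when it overlapped it by at least 1 bp. Promoter states used all transcripts of GENCODE release 44. Exons and introns are numbered by the Ensembl canonical transcript. Named regions were those within 1 kb of a member's TSS and, per locus, the regions of highest fold, up to 4 of each condition-only class and 3 of the shared class. Others were named after their values were seen. The genes, lists and motifs were chosen with earlier results of these data known. The assignment of regions to classes was tested on simulated data. Scripts ran in Python 3.11.15 (pysam 0.24.0, pandas 2.3.3, numpy 2.4.6, matplotlib 3.10.9, scipy 1.17.1).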

Additional observations from a re-analysis of the deposited data

How the results depend on the processing

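No paired analysis was possible because the authors pooled the replicates of each condition, and for the same reason no replicate could be left out. The Dox-only percent of condition-only regions over the 8 genes was 25% with the gene body alone (3 Dox-only and 9 No-Dox-only), outside the interval of the main value, and 0% at a fold of at least 8 (0 and 2). It was 42.9% at a q-value of 0.01, 37.5% at 1e-05, 50% with lists of equal length, 36.4% for strong peaks and 48.9% by base pairs. It was 50% without the EGFR locus, 37.5% without the HBEGF locus and 37.5% for regions nearest to a member's TSS. The fold of at least 8 and the choices of loci were made after the values were seen. The percent of the chromosome 4 cluster stayed between 36.4% and 54.5% under every alternative run. The promoter state of a gene changed only for EPGN within 3 kb. The main TEAD shares, 25% in Dox alone and 15% in No Dox alone, changed order within 50 bp of the summit, to 12.5% and 15%. The order stayed with the whole region searched (31.25% and 25%) and for strong peaks (25% and 14.3%). The TEAD share of both condition-only classes was 0% with the sequence read backwards, the control. The AP-1 share of Dox-only regions was 0% within 50 bp of the summit and 0% for strong peaks. Percents of single genes rest on few regions. HBEGF was at 100% with the gene body alone (1 region). TGFA was at 0% at a q-value of 1e-05 and for strong peaks, and EGF was at 0% in both, at a q-value of 0.01 and with the gene body alone. EGFR was at 30.3% by base pairs.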
